A study of Homo sapiens with 6 samples.

Results

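Among the 22989 genes of the count table, 276 had a Gm or Rik name and at least 100 raw counts in every one of the 6 libraries, and their RNA was compared between LINC00115 knockdown (KD) and control cells. These 276 genes are those whose symbol is Gm followed by a number, or ends in Rik. They comprised 111 Gm genes and 165 Rik genes and made up 1.2% of the table. The floor on counts was the same for both groups, so a gene that was silent in one group could not enter. The genes were thus chosen by their lowest count over the libraries, and levels are given as a description. One further gene was left out by name, and its counts in the control libraries were below the floor.

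LINC00115 is a long non-coding RNA (lncRNA), and the libraries were made to compare cells in which a short hairpin RNA had lowered it with control cells. There were 3 libraries of each kind, all labelled as paclitaxel (PTX)-resistant breast cancer stem cells (BCSC) of the line MDA-MB-231, a human triple-negative breast cancer line. The methods describe BCSC as cells sorted for high aldehyde dehydrogenase activity. The labels call the controls WT where the study names a control hairpin, shC. They describe the KD samples as sh115-1 to sh115-3, while the study uses sh115-1 and sh115-2 as names of different hairpins and gives sh115-2 for this comparison, so all 3 KD libraries would rest on 1 hairpin. Nothing says that the 3 libraries of a group came from separate cultures, and p-values measure the spread between these libraries, which may be technical.

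Gm and Rik names come from the nomenclature of the mouse genome. A Gm name is given to a gene model that was predicted from the genome, and a Rik name to a gene known from a clone of the RIKEN collection of full-length cDNAs, until a name that states a function replaces it. Such genes include lncRNAs, transcribed pseudogenes, lineage-specific members of large families such as the KRAB zinc finger genes, and conserved protein genes that were not studied. KRAB zinc finger proteins bind DNA and recruit TRIM28 and the histone methyltransferase SETDB1 to silence chromatin, above all at transposable elements.

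The names did not match the labelled organism. The labels give a human line, but rows with Gm or Rik names made up 25.1% of the table. The rows thus carry gene names of the mouse, which the human genome build named in the labels does not account for. KD, control and the cell line are given here as labelled, and the species of the cells was not tested. Of the 276 symbols 0 equalled a current or older human symbol or a synonym listed for a human gene. The choice by such names left no room for a match, so this 0 says nothing further about the table. The table had 0 rows named LINC00115, so the knockdown itself could not be checked. Among 11 markers of MDA-MB-231 and breast cells, the mesenchymal genes Vim (3370 to 3790 normalized CPM, which are counts scaled to a common library total) and Cd44 (872 to 963 CPM) were abundant in all libraries. The 11 markers summed to 5650 to 5720 CPM in the control and 6460 to 6580 CPM in the KD libraries, and 7 of them, Krt8, Krt18, Erbb2 and Esr1 included, were higher in every KD library. Of the aldehyde dehydrogenase genes examined, Aldh1a1 was called higher but reached at most 1.34 CPM, and Aldh1a3 had at most 4 counts in any library. Epcam and Pgr had at most 5 counts. Library totals lay between 36979221 and 38799331 counts. The counts of library pairs differed by a chi-square per degree of freedom of 206 to 226 between groups and of 3.88 to 4.92 within groups, except for 7.13 and 7.6 in the 2 pairs with WT replicate 1, which was farther from the other controls than they were from each other. Without it 33 of the 276 genes were lower and 17 higher, against 34 and 18 with it. The summed level of 6 lung epithelial markers was 0.956 to 1.14 CPM in the control and 69.3 to 80.2 CPM in the KD libraries, with Scgb1a1 and Sftpc at 0 in every control library. Summed kidney markers stood at 15.7 to 18.4 CPM in the control and 38.6 to 42.5 CPM in the KD libraries. Of these 6, 5 were higher in every KD library and Cubn was lower in each (8.12 to 8.36 against 5.86 to 6.49 CPM). Aqp1 and Cubn made up nearly all of the control sum. Kap and Umod had 0 counts in every control library, against 311 to 466 and 76 to 112 counts in the KD libraries. Slc34a1 had at most 1 count in a control library and 112 to 160 in the KD libraries. Leukocyte markers summed to 39.8 to 53.8 and 54.6 to 59.5 CPM. Cd68 made up most of both sums, and its libraries overlapped (37 to 51.1 and 44.6 to 48.9 CPM). Cd74 and Lyz2 were called higher, and Ptprc, Cd3e, Cd79a and Itgam were near 0 with overlapping libraries. Of 4 endothelial markers Cdh5 made up nearly all of a sum of 0.768 to 1.3 CPM in the control and 56.9 to 59.5 CPM in the KD libraries, while Tie1 was called lower, Pecam1 overlapped and Kdr was near 0. Of 5 fibroblast markers Pdgfra made up nearly all of a sum of 174 to 193 and 75.7 to 77.8 CPM, Dcn was called lower, and Col1a1, Col1a2 and Col3a1 were near 0 with overlapping libraries. These levels moved with the groups in which every gene below was compared, and their part in the results was not tested. In bulk RNA, fewer cells of a type and less RNA per cell cannot be told apart.

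Genes with a Gm or Rik name made up 5776 rows of the table, and few of them were expressed. No count at all was recorded for 292 of these rows, and 1387 passed the filter of the test. The floor of 100 counts was met by 2.39% of the 4647 Gm rows and by 14.6% of the 1129 Rik rows, against 57.7% of the 17213 rows with other names. All 276 genes at the floor passed the filter and were tested. Their median was 11.5 CPM against 47.7 CPM for the 9924 other genes at the same floor, and their lowest counts ran from 100 to 12480. Counts and CPM were not divided by gene length, so they compare how many reads genes took and not how much of their RNA was present.

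Together the 276 genes took a smaller share of the reads in KD cells. They held 0.6807, 0.6661 and 0.6693% of the counts in the control libraries and 0.6174, 0.6238 and 0.6193% in the KD libraries, and the groups did not overlap. The Gm genes took 0.163 to 0.166% of counts in the control and 0.143 to 0.147% in the KD libraries. For the Rik genes the shares were 0.504 to 0.514% and 0.474 to 0.477%. The summed level was 6675 ± 33.4 CPM in control and 6244 ± 46.5 CPM in KD cells (SD, n = 3 each), a change of -6.46%. It was the net of 175 genes with a lower mean in KD cells, whose losses added up to -1272 CPM, and 101 genes with a higher mean, whose gains added up to 840.7 CPM. The 5 largest losses came to -322 CPM and the 5 largest gains to 246.9 CPM, so most of both sums was spread over other genes. The largest losses were those of 9530068E07Rik (-91.5 CPM), B230219D22Rik (-78.6 CPM), Gm40007 (-59.2 CPM) and 2610507B11Rik (-58.9 CPM). The largest gains were those of C130026I21Rik (59.2 CPM), Gm20559 (55.4 CPM) and Gm7609 (49.9 CPM). These differences follow the counts of a gene as well as its change.

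Of the 276 genes, 34 were lower (12.3%) and 18 higher (6.52%) in KD cells by edgeR's quasi-likelihood test, at an adjusted p-value under 0.05 (Benjamini-Hochberg over all 13497 genes tested) and a fold change over 2. Over all genes tested the shares were 9.98% lower and 10.2% higher, and among the 9924 other genes at the same floor 4.6% and 6.12%. In all, 18.8% of the Gm and Rik genes were called, against 20.2% of all genes tested and 10.7% of the other genes at the floor. The median log2 fold change of the 276 genes was -0.185, against 0.018 for the other genes at the floor and -0.0061 for all genes tested. The lower and upper quartiles of the 276 genes were -0.65 and 0.22, and the range was -2.58 to 3.04. In each of the 52 called genes the KD and control libraries did not overlap.

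**Figure D1:**
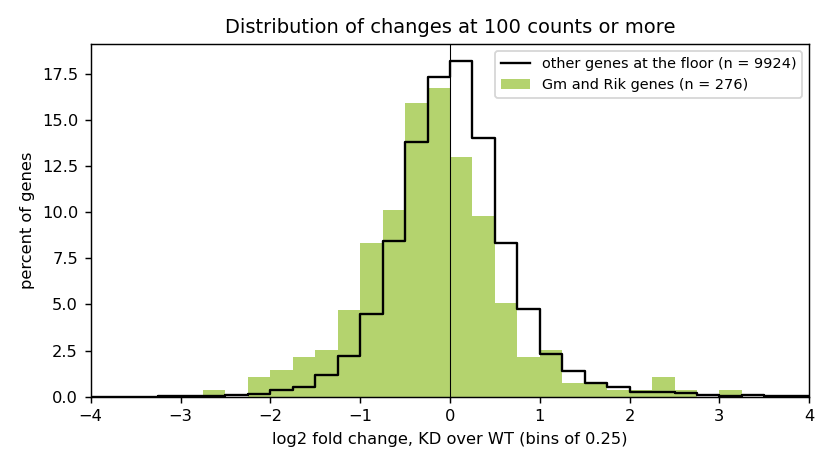
Distribution of log2 fold changes (KD over control, in bins of 0.25) as percent of genes, for the 276 Gm and Rik genes (bars) and the 9924 other genes at the same floor (line). The bars are shifted to the left of the line, with medians of -0.185 and 0.018.

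Without the threshold on the fold change, 132 of the 276 genes were lower and 67 higher at the adjusted p-value, and 77 did not pass. That is 72.1% past the adjusted p-value, against 73.4% of all genes tested and 78.9% of the other genes at the floor. The background was even in both directions, at 36.7% lower and 36.7% higher over all genes tested and at 38.4% lower and 40.4% higher among the other genes at the floor. The 3 KD libraries lay below all 3 control libraries in 128 of the 276 genes, above them in 70, and overlapped them in 78. Over all genes tested the KD libraries lay below in 37.8% and above in 37.8%, and among the other genes at the floor in 39% and 41.4%. Non-overlapping libraries thus occurred in 71.7% of the genes, against 75.6% of all genes tested and 80.4% of the other genes at the floor. Of the genes past the adjusted p-value, 147 changed by less than 2-fold. Among the 77 genes that did not pass, the largest log2 fold change in either direction was 0.38.

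The Gm genes held more called genes for their number than the Rik genes. Of the 111 Gm genes 20 were lower (18%) and 11 higher (9.91%), and their median log2 fold change was -0.362. Of the 165 Rik genes 14 were lower (8.48%) and 7 higher (4.24%), with a median of -0.117. Over all genes tested 9.98% were lower and 10.2% higher, and among the other genes at the floor 4.6% and 6.12%. The Gm genes took fewer reads, with a median of 7.99 CPM against 15.2 CPM for the Rik genes, and the difference between both kinds of name was not tested. In genes tested below the floor, 46% of the Gm genes and 46.8% of the Rik genes were called. Of the 165 Rik genes at the floor, 33 carry the number of a clone from the adult testis libraries of RIKEN. Of these 4 were lower (12.1%) and 1 higher (3.03%), with a median of -0.239. The 132 other Rik genes had 10 lower (7.58%) and 6 higher (4.55%), with a median of -0.0904. Testis germ cell markers, of which 4 of 6 were in the table, summed to at most 0.342 CPM in any library.

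Split by the mean count over the 6 libraries, the Gm and Rik genes with 200 to below 1000 counts held most of the lower calls. At 200 to below 500 counts, 23 of 118 genes were lower and 10 higher (19.5% and 8.47%), with a median log2 fold change of -0.368. The 1209 other genes at the floor in that range were 8.27% lower and 9.02% higher, with a median of -0.0179. At 500 to below 1000 counts, 9 of 56 genes were lower and 3 higher (16.1% and 5.36%), with a median of -0.245, against 6.44% lower and 8.2% higher of the 1646 other genes, whose median was 0.0112. At 1000 counts or more, 2 of 61 genes were lower and 4 higher, with a median of 0.0273, and the 6808 other genes were 3.61% lower and 5.29% higher with a median of 0.0243. Below 200 counts the floor of 100 in every library leaves little room for a 2-fold change. There none of 41 genes was called lower by edgeR or by DESeq2 (13 were lower at an unadjusted p-value under 0.05) and 1 was called higher, with a median of -0.149, against 1.92% lower and 1.15% higher of the 261 other genes.

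**Figure D2:**
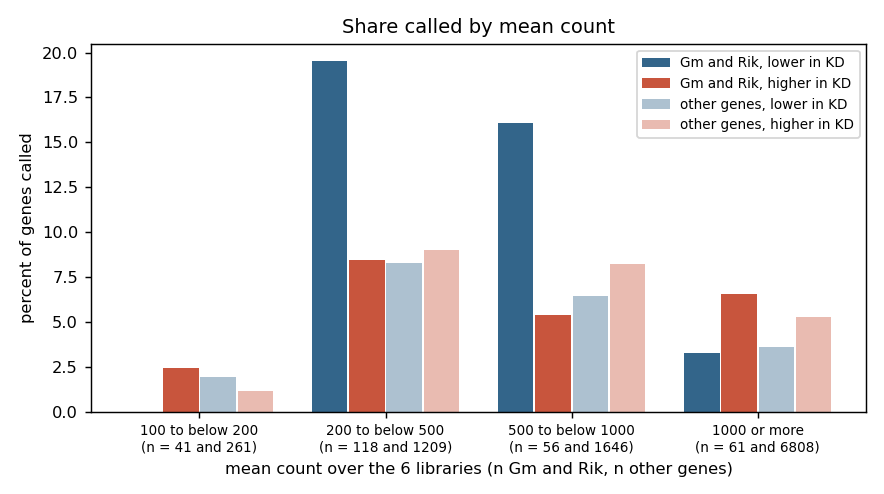
Percent of genes called lower (blue) or higher (red) in KD cells, by the mean count over the 6 libraries, for Gm and Rik genes (dark) and other genes at the same floor (pale). Among Gm and Rik genes the lower calls outnumber the higher ones from 200 to below 1000 counts (19.5% against 8.47%, then 16.1% against 5.36%), and the other genes of these ranges are called in both directions at 6.44% to 9.02%.

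The scatter between libraries was close to that of other genes with as many counts. The median biological coefficient of variation, the spread between libraries of a group beyond counting error, was 8.24% for the 276 genes and 4.53% for the other genes at the floor. In genes with a mean of 200 to below 500 counts it was 9.83% against 9.12%, and at 500 to below 1000 counts 6.79% against 6.5%. The standard error of the log2 fold change had a median of 0.113 over the 276 genes and ran from 0.0327 to 0.211.

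The 34 genes that were lower in KD cells were led by 4930447F24Rik, a Rik gene with no stated function. Its counts were 1384, 1191 and 1216 in the control and 248, 220 and 167 in the KD libraries. The level fell from 33.5 ± 2.83 to 5.6 ± 1.06 CPM (SD, n = 3), a log2 fold change of -2.58 ± 0.106 (SE) and an adjusted p-value of 2.13e-21 by edgeR's quasi-likelihood test. Gm40007 took the most reads of the 10 genes that fell most, with 2823, 2953 and 2951 counts in the control and 689, 669 and 671 in the KD libraries. All KD libraries lay within 17.7 to 18.2 CPM and all control libraries within 74.9 to 78.2 CPM, and the log2 fold change was -2.11 ± 0.0594 (adjusted p = 3.6e-26). Another 2 genes fell more than 4-fold. 4930556M19Rik stood at 18.3, 14.3 and 16.9 CPM in the control and at 4.94, 3.02 and 3.9 CPM in the KD libraries (4.17-fold lower), and 5430425K12Rik at 27.6, 22.7 and 22.8 against 5.53, 6.81 and 5.27 CPM (4.15-fold lower).

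The next genes of the 10 that fell most were 4 Gm genes with close changes. Gm30233 fell from 11 ± 0.422 to 2.98 ± 0.221 CPM (3.68-fold), Gm19385 from 12.6 ± 1.55 to 3.61 ± 0.259 CPM (3.5-fold), Gm13816 from 18.2 ± 1.9 to 5.25 ± 0.288 CPM (3.46-fold) and Gm38561 from 12 ± 0.149 to 3.55 ± 0.748 CPM (3.38-fold). Gm12602 and A130051J06Rik were both 3.28-fold lower in KD cells, at 20.4 ± 1.69 against 6.19 ± 0.677 CPM and at 22.7 ± 1.99 against 6.93 ± 0.066 CPM. The log2 fold changes of these 6 genes ran from -1.88 to -1.72 with standard errors of 0.0996 to 0.146, so neighbours in this order were closer to each other than their errors. In each of them every KD library was below every control library.

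Of the 18 genes that were higher in KD cells, C130026I21Rik changed most. It belongs to a family of mouse genes related to Sp100 and Sp140, which are proteins of nuclear bodies that bind chromatin and are induced by interferon. Its counts were 319, 286 and 323 in the control and 2474, 2563 and 2604 in the KD libraries, and the level rose from 8.2 ± 0.54 to 67.4 ± 3.08 CPM. The log2 fold change was 3.04 ± 0.0728 with an adjusted p-value of 3.04e-28 by edgeR's quasi-likelihood test. A630001G21Rik, of the same family, had 218, 177 and 236 counts against 263, 221 and 250, and its libraries overlapped (log2 fold change 0.21 ± 0.154, adjusted p = 0.211). Of the 4 genes listed for the family these 2 were at the floor, and a further 2 below it, called higher, are given with the genes near the floor. The list was put together after the symbols were seen and may not hold every gene of the family.

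Gm7609 and Gm7592 rose 5.6-fold and 5.01-fold. Gm7609 had 431, 372 and 422 counts in the control and 2208, 2368 and 2295 in the KD libraries, from 10.8 ± 0.848 to 60.7 ± 3.72 CPM. Gm7592 stood at 5.36, 5.48 and 5.08 CPM in the control and at 24.7, 28.2 and 26.9 CPM in the KD libraries. Gm38510 rose from 3.68 ± 0.762 to 19.1 ± 1.96 CPM (5.19-fold) and Gm20056 from 3.7 ± 0.301 to 17.3 ± 0.754 CPM (4.67-fold). With Gm4951, described next, these were the 6 genes that rose more than 4-fold, against 4 that fell as much.

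**Figure D3:**
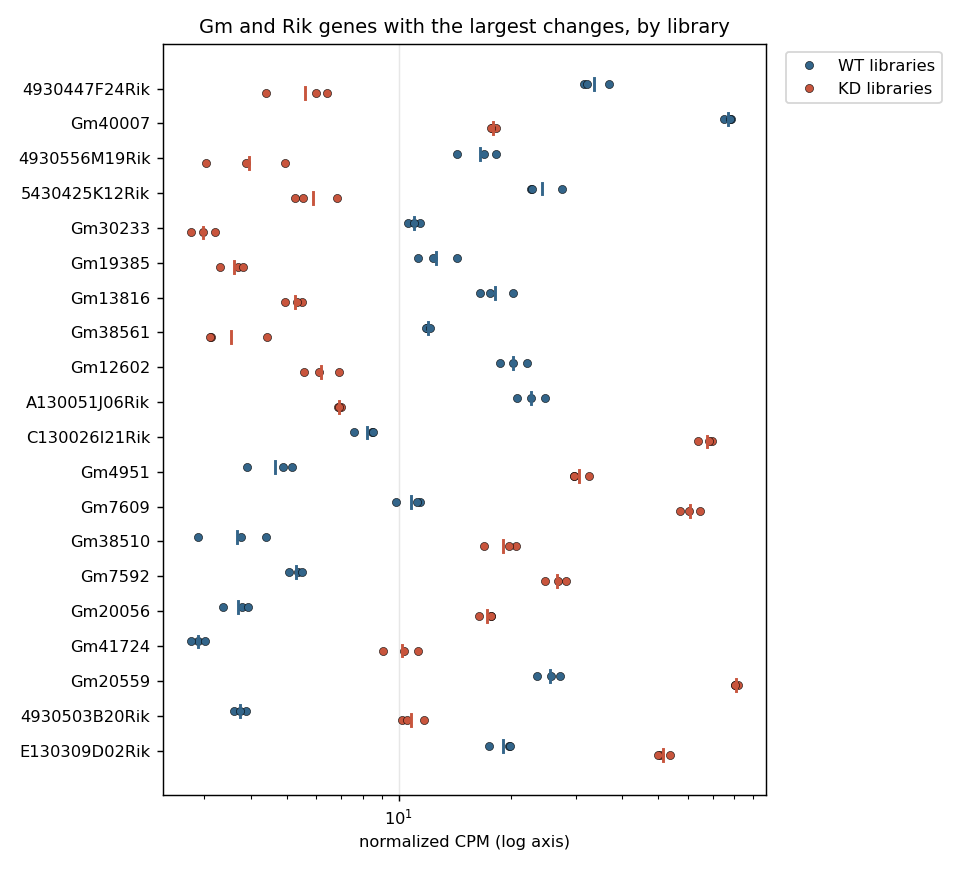
Normalized CPM (log axis) of the 10 lower and 10 higher genes with the largest changes, in the 3 control libraries (labelled WT, blue) and the 3 KD libraries (red), with group means as vertical ticks. In each of the 20 genes the groups are apart, from 4930447F24Rik (33.5 against 5.6 CPM) to C130026I21Rik (8.2 against 67.4 CPM).

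Other genes of the 10 that rose most changed less. Gm20559 stood at 23.5, 25.6 and 27.2 CPM in the control and at 80.4, 82 and 80.3 CPM in the KD libraries, a rise of 3.18-fold. E130309D02Rik rose from 19.1 ± 1.36 to 51.3 ± 2.07 CPM (2.69-fold). Gm41724 and 4930503B20Rik were near the floor in control cells, at 2.89 ± 0.131 and 3.75 ± 0.142 CPM, and rose to 10.2 ± 1.09 and 10.8 ± 0.781 CPM. The weakest of the higher calls was that of Gm30368, whose KD libraries stood at 8.92, 4.25 and 9.93 CPM against 3.58 to 3.95 CPM in the control. KD replicate 2 was thus far below the other 2 KD libraries for this gene and still above the control libraries, and the log2 fold change of 1.04 ± 0.203 had an adjusted p-value of 2.7e-05, the largest among the 52 called genes. It was no longer called without KD replicate 1 or KD replicate 3.

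**Figure D4:**
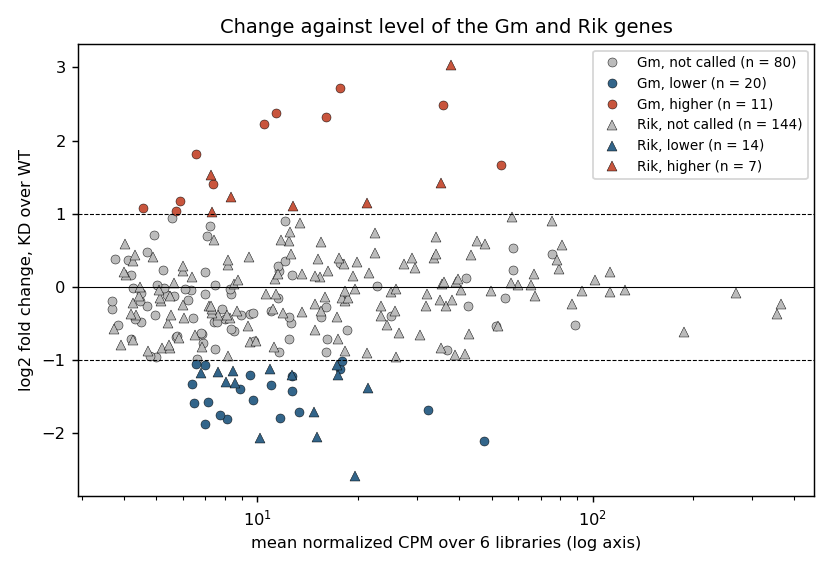
Log2 fold change (KD over control) against mean normalized CPM over the 6 libraries (log axis) for 111 Gm genes (circles) and 165 Rik genes (triangles), with called genes in blue (34 lower) and red (18 higher) and dashed lines at a fold change of 2. The called genes lie at low and middle levels, and no gene above 100 CPM is called.

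Genes of the interferon response and of MHC class I have many mouse members that bear Gm names. Immunity-related GTPases are induced by interferon and act against pathogens inside the cell, and MHC class I molecules show peptides to T cells. Of 16 such genes listed, 8 were in the table and 3 were at the floor in every library. All 3 passed the adjusted p-value on the higher side, and 2 of them were called. Over all genes tested 36.7% passed on that side and 10.2% were called higher. Gm4951, an immunity-related GTPase, had 147, 184 and 195 counts in the control and 1145, 1192 and 1124 in the KD libraries, a rise of 6.57-fold (log2 fold change 2.72 ± 0.103, adjusted p = 2.18e-22). Gm10499, an MHC class I-like gene, rose from 113, 168 and 128 to 322, 316 and 283 counts (2.25-fold, adjusted p = 1.07e-07). Gm11127, also class I-like, rose from 53.2 ± 2.16 CPM to 62.5 ± 1.05 CPM, a 1.17-fold change with an adjusted p-value of 0.000178 that was not called. Class I-like genes are close copies of each other and of the classical class I genes, and how reads shared between copies were counted is not given in the sources used here.

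The other genes of that list were below the floor. F830016B08Rik and Gm12185, both immunity-related GTPases, had 62, 33 and 45 and 25, 8 and 15 counts in the control libraries and 665, 815 and 678 and 249, 242 and 255 in the KD libraries. Gm5431, of the same family, went from 6, 2 and 5 to 299, 261 and 210 counts. In all 3 genes the KD libraries were far above the control libraries, and the floor kept the genes out because of their control counts. The class I-like genes Gm7030 and Gm8909 had at most 45 counts in any library. Gm7030 was called higher (log2 fold change 1.05 ± 0.465), and Gm8909 did not pass the adjusted p-value (0.64 ± 0.416).

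Some genes with a Gm or Rik symbol are known to encode a conserved protein. Of 36 listed genes with a named human counterpart, 19 were in the table, and all 19 were at the floor. None of the 19 was called in either direction by edgeR or by DESeq2, where 10.7% of the other genes at the floor were called. Of the other genes with a mean of 1000 counts or more, 3.61% were called lower and 5.29% higher. At such shares few calls would be found among 19 genes. At the adjusted p-value alone 7 were lower and 7 higher, as they were at an unadjusted p-value under 0.05, 8 had overlapping libraries, and the median log2 fold change was 0.026. The share in each direction at the adjusted p-value was near the 36.7% over all genes tested. Their median was 47.9 CPM and all changes lay between -0.65 and 0.63.

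B230219D22Rik (human C5orf24) and D630045J12Rik (KIAA1549) were the lowest of these 19 genes. B230219D22Rik had 8571, 8555 and 8642 counts in the control and 5884, 5194 and 5825 in the KD libraries, and fell from 228 ± 1.05 to 149 ± 6.53 CPM (log2 fold change -0.61 ± 0.0381, adjusted p = 3.13e-16). D630045J12Rik fell from 37.3 ± 5.48 to 23.7 ± 0.943 CPM. Both bridge-like lipid transfer proteins, which carry lipids between membranes, were lower by a similar amount. 2610507B11Rik (BLTP2) had 14908, 15140 and 14646 counts in the control and 12742, 12480 and 12849 in the KD libraries (log2 fold change -0.23 ± 0.0327, adjusted p = 9.85e-08). 4932438A13Rik (BLTP1) had 3629, 3642 and 3350 against 2859, 3102 and 3045 counts (-0.24 ± 0.0501, adjusted p = 7.25e-05). In both genes the groups did not overlap.

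The highest of the 19 were 4930402H24Rik (DNAAF9), which rose from 35.4 ± 3.18 to 54.7 ± 2.69 CPM (1.54-fold), and 0610010F05Rik (SANBR), which rose from 38.3 ± 3.12 to 57.5 ± 0.931 CPM (1.5-fold). 1700037H04Rik (C20orf27) and 5730455P16Rik (ODR4) rose 1.37-fold and 1.32-fold. Some genes of the list with many counts changed little. 1110008P14Rik (BBLN, a coiled coil protein) stood at 127 ± 9.15 CPM in the control and 123 ± 7.85 CPM in KD cells (log2 fold change -0.05 ± 0.0483, adjusted p = 0.375), and at -0.11 (adjusted p = 0.034) without WT replicate 1. 1110004F10Rik (C11orf58, a small acidic protein) stood at 98.4 ± 5.07 and 105 ± 3.94 CPM (0.09 ± 0.0458, adjusted p = 0.0757), and at 0.12 (adjusted p = 0.0372) without WT replicate 3. 5031439G07Rik (KIAA0930), at 276 ± 7.12 and 260 ± 9.99 CPM, passed the adjusted p-value at 0.0261 with a log2 fold change of -0.09, and it no longer passed by DESeq2 or without WT replicate 1, KD replicate 1 or KD replicate 2.

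**Figure D5:**
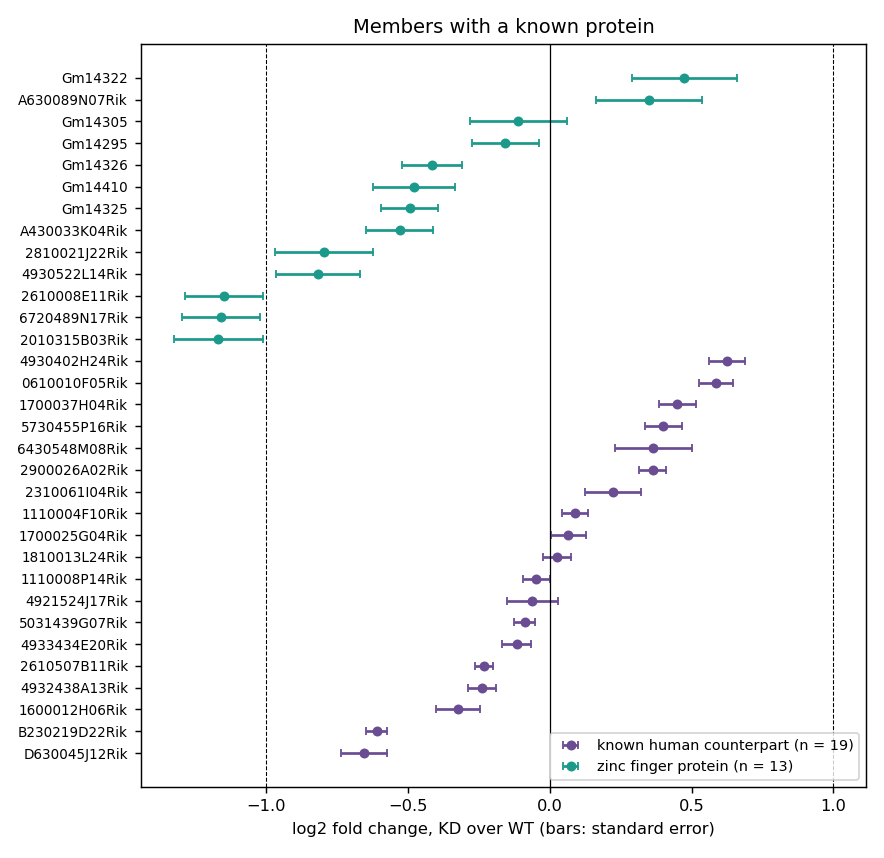
Log2 fold change (KD over control) with its standard error for the 19 listed genes with a named human counterpart (purple) and the 13 listed zinc finger genes (green). Dashed lines mark a fold change of 2. The listed human counterparts spread on both sides of 0 and none passes the dashed lines, and 3 of the listed zinc finger genes lie beyond -1.

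The 5 genes with most counts took 21.2 to 21.6% of the counts of the 276 genes in the control libraries and 18.3 to 19.1% in the KD libraries. Of these, 4 are on the list of genes with a named human counterpart and are described above. The remaining gene, 9530068E07Rik, was not on that list, which does not say that it lacks a counterpart. It fell from 400 CPM in the control to 308 CPM in KD cells (log2 fold change -0.38) and was not called. The share of counts taken by the 5 genes together did not overlap between the groups, with the KD libraries on the lower side.

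KRAB zinc finger genes were one family within the 276 genes. A list of 13 of them was put together after the symbols were seen and may not hold every gene of the family. The numbers below are those of the listed genes and not of the whole family. Of the 13, 3 were called lower and none higher by edgeR and by DESeq2, against 9.98% and 10.2% of all genes tested. At the adjusted p-value alone 9 were lower and 1 higher, where 36.7% of all genes tested were lower and 36.7% higher, and the numbers were the same at an unadjusted p-value under 0.05. Most of the 13 had a mean of 200 to below 500 counts. Of the 118 Gm and Rik genes in that range, 23 were called lower and 10 higher. At the adjusted p-value alone 67 of the 118 were lower and 24 higher. The median log2 fold change was -0.494 for the 13 genes and -0.368 for the 118. 2010315B03Rik had 331, 342 and 389 counts in the control and 126, 189 and 155 in the KD libraries (2.26-fold lower, adjusted p = 3.73e-08). 6720489N17Rik went from 422, 391 and 384 to 184, 195 and 155 counts (2.24-fold lower) and 2610008E11Rik from 399, 422 and 498 to 173, 229 and 191 counts (2.22-fold lower). The groups did not overlap in any of these 3 genes.

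A further 3 zinc finger genes, 4930522L14Rik, 2810021J22Rik and A430033K04Rik, fell by 0.82, 0.80 and 0.53 on the log2 scale. Another 6 of the 13 have names from Gm14295 to Gm14410, and they did not move as one. Gm14325 (-0.49 ± 0.0998), Gm14410 (-0.48 ± 0.145) and Gm14326 (-0.41 ± 0.105) were lower, and Gm14322 was higher (0.47 ± 0.186, adjusted p = 0.0225) with overlapping libraries. Gm14295 and Gm14305 did not pass, with log2 fold changes of -0.16 ± 0.117 and -0.11 ± 0.172. The sequences of such zinc finger genes are close to each other, so reads may have been split between them in a way that is not known here. A630089N07Rik did not pass the test at 0.35 ± 0.188, although its KD libraries lay above the control libraries.

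Of 5 listed lncRNAs, 4 were in the table and 2 at the floor. 2410006H16Rik, a host gene of small nucleolar RNAs, had 1465, 1398 and 1555 counts in the control and 2990, 2817 and 2787 in the KD libraries. It rose 1.94-fold (log2 fold change 0.96 ± 0.0543, adjusted p = 2.32e-17) and stayed just under the threshold on the fold change. C130071C03Rik, the mouse counterpart of LINC00461, fell from 257, 252 and 244 to 123, 147 and 151 counts (log2 fold change -0.84 ± 0.166, adjusted p = 3.2e-05). Neither of these genes at the floor was called, and in both the groups did not overlap. The other listed lncRNAs in the table were below the floor, with at most 44 counts in any library. Of them, 2610035D17Rik was called lower (log2 fold change -1.74 ± 0.53) and A330023F24Rik higher (1.54 ± 0.629).

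Genes near the floor show what it kept and what it left out. Just inside were Gm46353 with 211, 190 and 188 counts in the control and 135, 100 and 126 in the KD libraries, 2310039H08Rik with a lowest count of 102 and a log2 fold change of -0.88, and 4930432K21Rik with a lowest count of 102 and -0.80. Just outside were E430018J23Rik with a lowest count of 99 (-0.98), Gm15411 with 98 (-0.34) and Gm16576 with 97 (-1.60). In these 6 genes the lowest count was in a KD library.

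The floor removed more genes that were low in KD cells than genes that were low in control cells. Of the Gm and Rik rows, 60 reached 100 counts in all 3 control libraries and in none of the KD libraries, and 20 had the reverse. Among rows with other names these numbers were 142 and 166. Of all Gm and Rik rows 368 were at the floor in the 3 control libraries and 303 in the 3 KD libraries, against 10176 and 10189 of the rows with other names. The 3 largest changes of the first kind were those of 4930519F16Rik (339, 359 and 362 counts in the control and 10, 5 and 22 in the KD libraries), Gm34375 (103, 155 and 160 against 1, 13 and 6) and Gm35048 (229, 211 and 169 against 25, 16 and 13). Of the second kind they were those of A530040E14Rik (3, 3 and 1 counts against 300, 281 and 172), Gm5431, whose counts are given above, and A530032D15Rik (2, 14 and 5 against 252, 354 and 371). A530040E14Rik and A530032D15Rik belong to the same Sp100- and Sp140-related family as C130026I21Rik, and in both the KD libraries were far above the control libraries.

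Among Gm and Rik genes that passed the filter of the test but not the floor, the share of lower calls was larger. Of these 1111 genes, 370 were lower (33.3%) and 143 higher (12.9%), and the median log2 fold change was -0.555. The 2186 genes with other names below the floor were 22.2% lower and 28% higher, with a median of 0.0628. With their low counts these genes were measured less well, with a median biological coefficient of variation of 29.3% and 26.4%. The genes of another group of provisional names, 32 expressed sequence tags and locus numbers at the floor, had 1 lower and 1 higher call and a median log2 fold change of -0.0413.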

How the data were processed

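The deposited table holds whole-number read counts per gene, which the authors did not normalize. Per the labels, HISAT2, featureCounts and DESeq2 were used with hg38, while the study's methods name hg19. Both are builds of the human genome, and neither accounts for the mouse gene names of the rows. Which annotation was used, and whether strand was, is not given in the sources used here, so counts of overlapping or antisense genes and of near-identical copies are uncertain. Columns carry the descriptions in the labels, which gave each its sample. The 6 libraries held 36979221 to 38799331 counts, and at this depth a lowest count of 100 leaves the precision given by the standard errors.

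The test was that of edgeR 4.0.16 in R 4.3.3 on these counts, with filterByExpr (minimum count 10, minimum total count 15), TMM, and the quasi-likelihood test of KD against control with Benjamini-Hochberg adjustment over 13497 genes. A gene was called when its adjusted p-value was below 0.05 and it changed more than 2-fold, as in the study's methods. Normalized CPM use TMM-scaled totals (factors 0.9901 to 1.014). Standard errors are the log2 fold change divided by the root of F. The pipeline was tested on simulated data.

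The genes and lists were chosen with earlier results of these data known, and the zinc finger and Sp100- and Sp140-related lists were written after the symbols were seen. A list of 24 named copies of other genes had 0 rows in the table. Named are the 10 called genes with the largest change each way and no overlap, the 5 with most counts, members of the lists (up to 6 each), and genes at the edge of the floor. Other genes named in lists, among the gains and losses of CPM, or as the weakest call were chosen after their values were seen. Alternatives were other scalings (library size, DESeq2's size factors, upper quartile), DESeq2 1.42.0, no filter, other thresholds, each replicate left out and the replicate number as a block.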

Additional observations from a re-analysis of the deposited data

How the results depend on the processing

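The counts of 34 lower and 18 higher genes and the median log2 fold change of -0.185 kept their direction under every alternative run. DESeq2 called the same 34 and 18 genes. Scaling by upper quartile moved the median to -0.227. Without a threshold on the fold change 132 genes were lower and 67 higher, and in a test against a fold change of 1.5 they were 49 and 25. With at least 50 counts in every library (375 genes), 61 were lower and 23 higher, with a median of -0.264. With at least 200 counts (174 genes), 15 were lower and 6 higher, with a median of -0.131. Both follow from the genes admitted. Leaving out each replicate in turn gave 33 to 36 lower genes, 16 to 19 higher genes and medians of -0.203 to -0.175. Called in all 6 of these fits were 29 of the 34 lower and 16 of the 18 higher genes. The call was lost without WT replicate 1 for 2510022D24Rik, A330074K22Rik, Gm19589 and Gm20554, without WT replicate 3 for Gm19589, without KD replicate 1 for 3300002I08Rik, Gm11613 and Gm30368, without KD replicate 2 for Gm19589, and without KD replicate 3 for 2510022D24Rik, Gm20554 and Gm30368.

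With the replicate number as a block, 35 genes were lower and 17 higher, with a median of -0.177. Libraries with the same number did not deviate together (correlations of 0.0041, -0.0178 and -0.0175). Such values cannot show whether libraries with the same number were prepared together.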
